A study of Mus musculus with 12 samples.

Results

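Gene expression was compared between cortex of wild-type mice (Grn+/+, WT) and cortex of humanized mutant mice, which lack the mouse progranulin gene and carry an allele labelled GRNmEx5 (Grn-/-;GRNmEx5, MUT). The comparison takes 8 of the 12 RNA-seq libraries of the study, 4 WT and 4 MUT, chosen by their labelled genotype, and all 15298 genes with enough reads to test out of 27179 in the count table. The other 4 libraries are from progranulin-null mice without the human allele (Grn-/-, KO). They enter the model for their estimate of the spread and serve here to tell what belongs to the GRNmEx5 line from what both Grn-null lines have. WT replicate 1 was 287 days old and WT replicates 2 to 4 were each 375 days old. The MUT animals were 287, 272, 309 and 282 days old, and the KO animals 308, 282, 282 and 282 days. By label, WT replicate 1 was female and WT replicates 2 to 4 were male. MUT replicates 1, 2 and 4 were labelled female and MUT replicate 3 male. KO replicates 1 and 2 were labelled male and KO replicates 3 and 4 female. Labelled sex was thus uneven between WT and MUT, and a term for it was kept in the model. GRNmEx5 stands for a human GRN sequence with a disease-causing deletion, as far as the study's title tells. The labels do not say where the human sequence sits in the mouse genome, what drives it, or how many founder lines were used, and human GRN itself was not analysed here.

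Progranulin is a secreted glycoprotein that is taken up by sortilin and by prosaposin-dependent routes, delivered to lysosomes and cut there into granulins. Mutations that remove 1 copy of the human gene cause frontotemporal dementia, and loss of both copies causes a lysosomal storage disease, neuronal ceroid lipofuscinosis. In mice without progranulin, microglia and astrocytes are the cells known for their reaction, with raised lysosomal, complement and phagocytic genes in older animals.

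The 8 libraries held 16381221 to 20782195 counts, so that 10 counts correspond to about 0.483 to 0.607 CPM (reads scaled to library size, with factors set by the trimmed mean of M values). The tissue label was checked against markers of cortical excitatory neurons. These were detected throughout, with a summed level of 2799 to 3356 CPM in WT and 2644 to 2969 CPM in MUT. The transcript of the inactive X chromosome and a Y-linked transcript, used only to check the labels, ran against the labelled sex in all 12 libraries. A term for sex takes the same value whichever way the labels are read, but in WT it coincides with age, since only WT replicate 1 is both labelled female and young. Markers of striatal neurons stood at a summed 1551, 2447 and 4117 CPM in WT replicates 2, 3 and 4, against 870 CPM in WT replicate 1 and 819 to 961 CPM in MUT. Markers of choroid plexus were high in WT replicate 4 and MUT replicate 1, at 1293 and 2394 CPM against 279 to 343 CPM in the other 6.

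Mouse Grn, the targeted gene, was measured first. It lies on the plus strand of chromosome 11 (11:102430322-102436809, mm10). Its level was 57.2 CPM in WT replicate 1 and 59.9, 57.6 and 57.0 CPM in WT replicates 2 to 4. It was 11.5, 13.7, 13.3 and 15.3 CPM in the MUT libraries, and 12.9, 10.8, 13.4 and 13.96 CPM in the KO libraries. No MUT library came near a WT library, and the young WT library lay among the older ones. Grn fell in MUT to 23.2% of the WT mean, a difference of -2.14 log2 units (edgeR, SE 0.0938, adjusted p = 1.76e-07). The reads that stayed were as frequent in MUT as in KO, with a difference of 0.06 log2 units (95% interval -0.15 to 0.26, adjusted p = 0.989).

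Hprt, on the plus strand of the X chromosome (X:52988078-53021660, mm10), was the gene with the smallest p in the comparison. It encodes hypoxanthine-guanine phosphoribosyltransferase, the enzyme that returns hypoxanthine and guanine to the nucleotide pool. Its locus is widely used as a docking site for single-copy transgenes, in general and not as a statement of the labels. WT replicate 1 had 125 CPM and WT replicates 2 to 4 had 127, 132 and 123 CPM. The MUT libraries had 14.2, 13.8, 11.6 and 17.0 CPM, and the KO libraries 132, 136, 131 and 120.2 CPM. The MUT libraries were therefore apart from all 8 others, which overlapped each other. Hprt fell in MUT to 11.1% of the WT mean, a difference of -3.18 log2 units (SE 0.0940, adjusted p = 3.27e-09). In raw counts the 4 MUT libraries still held 203 to 294 Hprt reads each, against 2068 to 2681 in WT. An unnamed gene model overlaps Hprt on the other strand, and whether reads were counted by strand is not given in the sources used here.

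The promoters of these genes are printed because the lowered transcripts start there; RefSeq entries (GRCm38.p6) were found for 2 of the 3 genes that passed the test. Each sequence runs 5′ to 3′ on the plus strand, from 250 bases before the start site to 50 bases after it, with every match to GGGCGG, the core of the GC box, in capitals. Both strands were searched, and all matches lie on the plus strand.
Hprt, chrX:52987828-52988127: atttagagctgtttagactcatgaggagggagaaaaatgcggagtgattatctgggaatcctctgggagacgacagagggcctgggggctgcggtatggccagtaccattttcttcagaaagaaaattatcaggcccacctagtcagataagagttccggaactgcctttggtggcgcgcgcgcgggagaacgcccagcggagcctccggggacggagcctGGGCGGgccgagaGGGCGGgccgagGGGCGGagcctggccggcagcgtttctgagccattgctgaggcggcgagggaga
Grn, chr11:102430257-102430556: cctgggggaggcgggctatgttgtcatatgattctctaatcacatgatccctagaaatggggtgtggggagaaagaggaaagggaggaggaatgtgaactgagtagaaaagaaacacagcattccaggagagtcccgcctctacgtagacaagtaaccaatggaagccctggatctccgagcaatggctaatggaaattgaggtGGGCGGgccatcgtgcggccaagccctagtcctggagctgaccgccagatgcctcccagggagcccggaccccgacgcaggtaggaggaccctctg
The Hprt promoter holds 3 matches and the Grn promoter 1. The RefSeq start site used for Grn lies downstream of 11:102430322, where the gene model used for counting begins. Most of the printed Grn stretch, with its match, therefore lies within that model. At least 1 match on either strand is present in 11714 of 32851 RefSeq promoters of this length (35.7%), so the motif sets neither gene apart. These are reference sequences, and the alleles of the MUT line were not read.

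The genes next to Hprt were measured for comparison. The nearest tested neighbours on either side are Phf6, which encodes a chromatin-associated zinc finger protein, Ccdc160, the glypican gene Gpc3, Fam122b, Mospd1 and Rtl8c. MUT and WT libraries overlapped for all 6, with differences of -0.06, -0.14, 0.31, -0.25, 0.03 and -0.08 log2 units in the order named. The closest, Phf6, 0.0311 Mb away, had 29.3 ± 1.94 CPM in WT and 29.2 ± 2.90 CPM in MUT (SD, n = 4 each). Within 10 Mb of Hprt, 5 of 58 other tested genes had MUT and WT libraries that did not overlap (8.62%), where 7.09% of all tested genes did, and 0 of the 58 passed edgeR's test. The median size of the difference, whatever its sign, was 0.22 log2 units for the 13 genes within 2 Mb of Hprt and 0.15 for the 58, against 0.09 over all tested genes, and 3 of the 13 were above 0. The rest of the purine salvage pathway was measured too, and the members named here were picked for their steps in it with their values known. Of 15 members, only Hprt passed, under edgeR, DESeq2 and limma-voom alike. Aprt, the enzyme that salvages adenine, was at 17.2 ± 0.669 CPM in WT and 17.3 ± 1.61 CPM in MUT, a difference of 0.02 log2 units (SE 0.0853, adjusted p = 0.947). Adenosine kinase (Adk) stood at 52.5 ± 4.92 and 48.1 ± 2.96 CPM, guanine deaminase (Gda) at 337 ± 16.1 and 299 ± 23.1 CPM, and Prps1, which makes the phosphoribosyl donor, at 68.8 ± 2.51 and 66.9 ± 1.74 CPM. Xanthine dehydrogenase (Xdh), the last step of purine breakdown, had 12.9 ± 2.79 and 13.4 ± 2.29 CPM. The median of the list was -0.01 log2 units against 0.00 over all tested genes.

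Wdfy1 was the 1 gene called higher by edgeR in the fit of all 12 libraries. It encodes a FYVE-domain protein of early endosomes that acts in Toll-like receptor 3 and 4 signalling, and lies on the minus strand of chromosome 1 (1:79702262-79761769, mm10). WT replicate 1 had 25.7 CPM and WT replicates 2 to 4 had 22.0, 22.5 and 23.2 CPM. The MUT libraries had 43.1, 64.2, 41.8 and 59.8 CPM, and the KO libraries 42.6, 43.2, 61.5 and 44.3 CPM. All 8 Grn-null libraries were above all 4 WT libraries, and within MUT the values fell into a lower and a higher pair. The change was 1.001 log2 units (SE 0.137, adjusted p = 0.0449), or 2.24 times the WT mean. This call is close to the threshold: Wdfy1 passed in 12 of 30 other settings, at log2 values of 0.89 to 1.16, and edgeR's robust estimate of the spread gave an adjusted p of 0.0722.

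In all, 3 of 15298 genes passed the test in MUT against WT (0.0196%), 1 higher (0.00654%) and 2 lower (0.0131%), while 1710 had an unadjusted p below 0.05. DESeq2 called 14 genes higher and 38 lower, limma-voom called Grn and Hprt only, and the fit without WT replicate 1 called 506 higher and 560 lower. That last fit leaves 3 WT libraries of a single age and sex, all with raised striatal markers, so that genotype, age and dissection cannot be told apart in it. A fit with age beside sex called Lyz2 in place of Wdfy1. Only WT replicate 1 is near the age of MUT, so the WT side of that fit rests largely on 1 library. A fit of the animals under 310 days holds WT replicate 1 as its only WT library, and its calls are not counted here. In it Grn and Hprt differed by -2.06 and -3.14 log2 units.

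**Figure D1:**
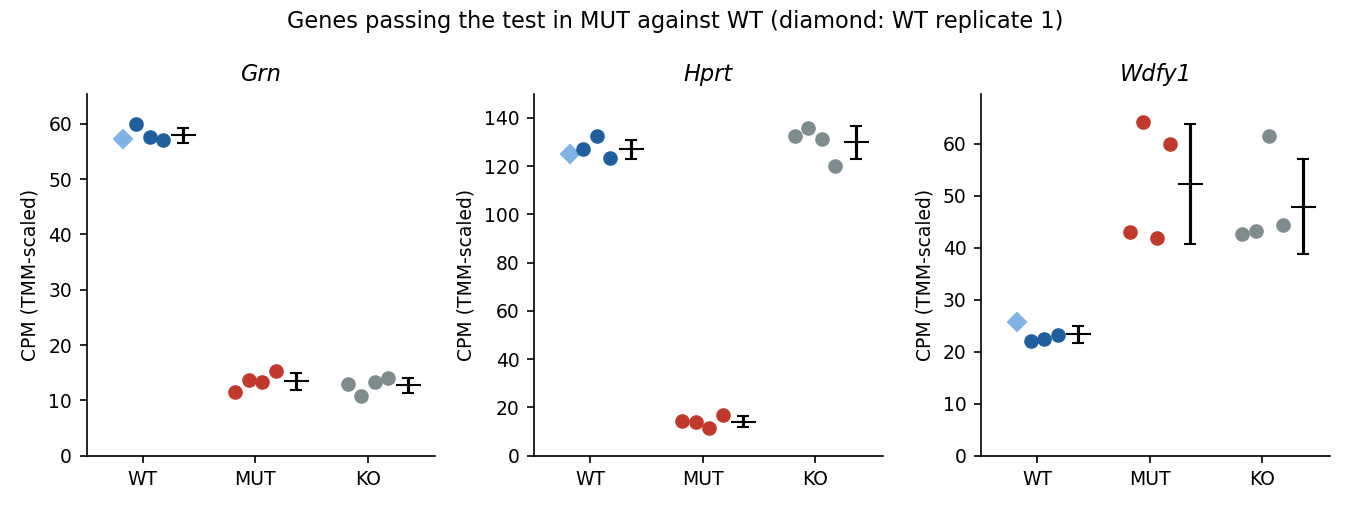
Level of Grn, Hprt and Wdfy1 (CPM, vertical axes from 0) in the WT, MUT and KO libraries. Points are libraries, the light diamond is WT replicate 1, and bars give the mean ± SD of 4 libraries. Hprt is at 11.6 to 17.0 CPM in MUT alone, while Grn and Wdfy1 stand at like levels in MUT and KO.

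**Figure D2:**
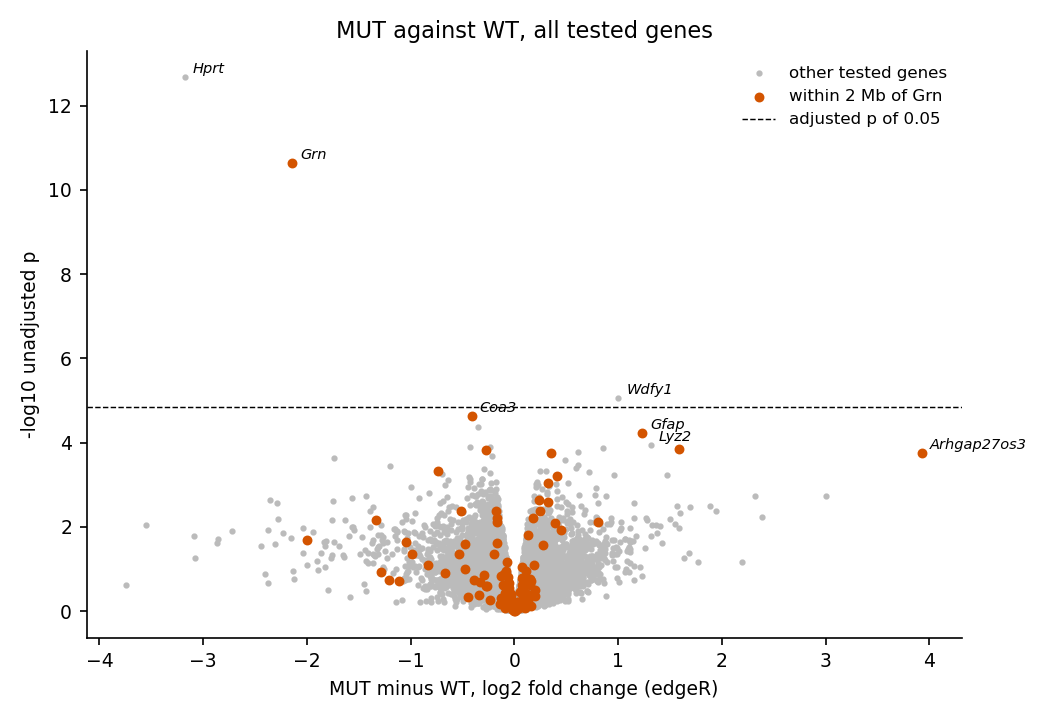
Log2 fold change of MUT against WT (horizontal axis) and -log10 of the unadjusted p (vertical axis) from edgeR for the 15298 tested genes. Orange points lie within 2 Mb of Grn, and the dashed line marks an adjusted p of 0.05. Hprt, Grn and Wdfy1 are the 3 points above the line. The fitted value of Arhgap27os3 rests on 2 reads in WT.

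Beyond these 3, 13 genes had an adjusted p between 0.05 and 0.2, and 6 of them lie within 2 Mb of Grn. In that window, Grn left out, 24 of 107 tested genes had MUT and WT libraries that did not overlap (22.4%), 14 with MUT higher and 10 with MUT lower. Over all tested genes the share was 7.09%, with 3.38% higher and 3.71% lower. Further out it was 8.42% of 95 genes at 2 to 5 Mb, 5.88% of 85 genes at 5 to 10 Mb and 6.04% of 961 genes on the rest of the chromosome. None of the 107 neighbours passed edgeR's test, and 27 had an unadjusted p below 0.05, as had 1710 of all 15298 tested genes. DESeq2 called 5 of the neighbours, and limma-voom called 0. Of the 6 nearest tested genes, 3 on either side of Grn, 5 overlapped between the groups. Fam171a2, the closest, was at 140.5 ± 13.5 CPM in WT and 128 ± 8.47 CPM in MUT. Gpatch8 did not overlap, at 149.6 to 158 CPM in WT and 163 to 165 CPM in MUT (0.07 log2 units, SE 0.0395, adjusted p = 0.522). Rundc3a was at 375 ± 29.1 CPM in WT and 372 ± 19.5 CPM in MUT, and Slc25a39, a mitochondrial glutathione carrier, at 51.5 ± 1.81 and 51.5 ± 3.55 CPM (SD, n = 4 each).

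The genes that stood out in the window are given here by their values and were picked after these were seen, apart from Gfap. Coa3 encodes an assembly factor of cytochrome c oxidase and lies 1.15 Mb from Grn on the proximal side. It was at 45.7 CPM in WT replicate 1, 49.8, 51.8 and 51.2 CPM in WT replicates 2 to 4, and 37.1, 34.6, 37.2 and 37.1 CPM in MUT. KO libraries were between the other groups, at 38.7, 42.7, 37.7 and 43.3 CPM. The difference of MUT from WT was -0.41 log2 units (SE 0.0624, adjusted p = 0.0884). Tubg2, 1.27 Mb away, encodes the gamma-tubulin of neurons. It was at 44.5, 47.4, 44.5 and 46.1 CPM in WT and 38.1, 39.6, 36.9 and 38.0 CPM in MUT (-0.27, SE 0.0508, adjusted p = 0.182). Acbd4, a peroxisomal acyl-CoA binding protein gene 0.665 Mb distal to Grn, was at 30.7, 28.1, 31.6 and 27.6 CPM in WT and 39.8, 37.1, 39.0 and 36.2 CPM in MUT (0.36, SE 0.0671, adjusted p = 0.182).

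For 2 of the neighbours the WT level was close to nothing. Both passed the read filter through MUT and KO libraries, since WT alone had too few reads. Neither would have been tested if MUT and KO had been as low, so a higher value in MUT is no separate support. Both are counted above among the neighbours with MUT higher. Meox1, a homeobox gene of the mesoderm 0.536 Mb away, had 7, 10, 6 and 4 reads in WT and 27, 18, 21 and 18 reads in MUT (1.58 log2 units, SE 0.291, adjusted p = 0.182). Arhgap27os3, an antisense gene at Arhgap27 and 0.908 Mb away, had 0, 0, 2 and 0 reads in WT, 8, 7, 13 and 8 in MUT and 7, 12, 14 and 12 in KO. Summed over libraries this is 36 reads against 2, a ratio of 17.9 per scaled library size (95% interval 4.61 to 154, counting error only). Reads from it and from Arhgap27 cannot be told apart with certainty. The KO libraries, which share the Grn-null background, overlapped with MUT for most of the neighbours: 9 of 107 did not (8.41%), where 5.22% of all genes did not. Whether sequence differences carried along with the Grn-null allele have a part in these values was not tested.

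**Figure D3:**
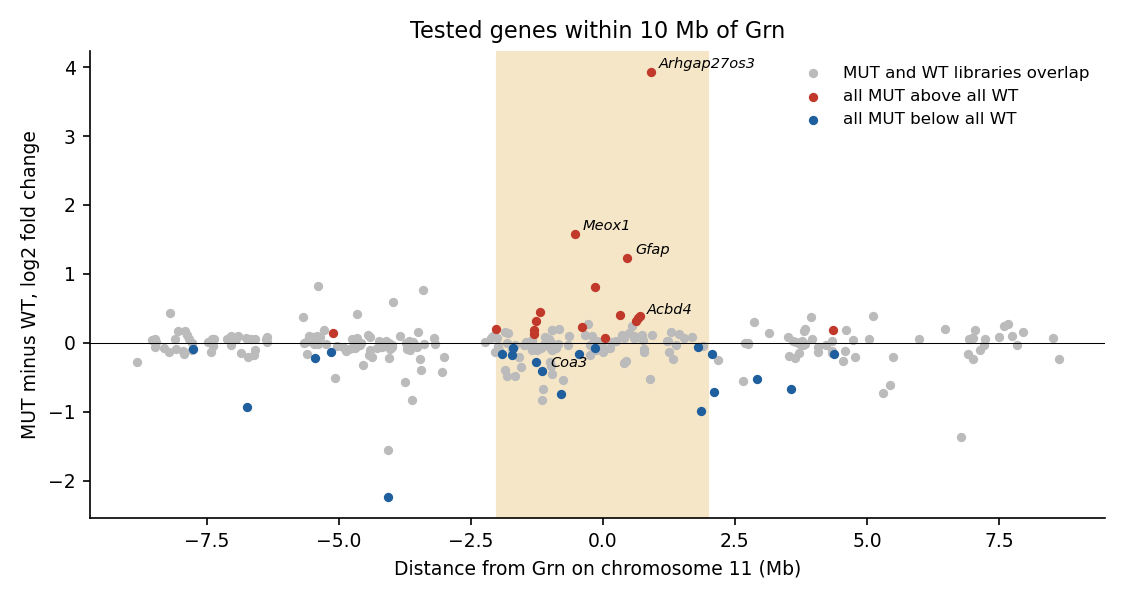
Log2 fold change of MUT against WT (vertical axis) by distance from Grn on chromosome 11 (horizontal axis, Mb), Grn left out. Red and blue points are genes whose 4 MUT libraries are all above or all below the 4 WT libraries, and the shaded band is 2 Mb to either side. Coloured points make up 24 of 107 genes in the band.

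Of all 15298 tested genes, 1710 had an unadjusted p below 0.05 with edgeR, and DESeq2 called 14 higher and 38 lower. The counts of every list below are to be read beside these totals, and several lists stand near them. Genes of the lysosome, where progranulin is processed, were taken in 3 lists. Of 15 lysosomal proteases, 0 passed edgeR's test, 6 had an unadjusted p below 0.05, DESeq2 called 1 (Ctss) and limma-voom 0. Values above 0 were found for 13 of the 15, with a median of 0.13 log2 units, where 51.1% of all tested genes were above 0 and their median was 0.00. Leaving out 1 library gave medians from 0.10 without WT replicate 1 to 0.20 without MUT replicate 3, and libraries labelled male gave 0.07. The list's level, the mean of centred log2 CPM over members, was -0.236, -0.082, -0.031 and -0.023 in WT. In MUT it was 0.208, 0.002, -0.014 and -0.022, so that MUT replicates 2 to 4 stood close to WT replicates 3 and 4. Ctss encodes cathepsin S, a protease of microglial lysosomes. It had 48.9 CPM in WT replicate 1, 50.3, 49.1 and 54.7 CPM in WT replicates 2 to 4, and 62.2, 63.8, 65.2 and 58.9 CPM in MUT. The groups did not overlap, and the difference was 0.30 log2 units (SE 0.0640, adjusted p = 0.289). Ctsd, the aspartyl protease that cuts progranulin into granulins, had 271 CPM in WT replicate 1, 288, 334 and 308 CPM in WT replicates 2 to 4, and 339, 324, 340.1 and 343 CPM in MUT. Here WT replicate 3 alone exceeded the lowest MUT library, and the difference was 0.19 log2 units (95% interval 0.05 to 0.33, adjusted p = 0.374). Ctsf, a cysteine protease with mutations in another ceroid lipofuscinosis, was at 55.1 ± 1.96 CPM in WT and 63.9 ± 3.85 CPM in MUT (SD, n = 4 each). Ctsb, the other abundant cathepsin, showed no such shift, at 579 ± 56.9 and 564 ± 31.9 CPM, with an interval of -0.17 to 0.14 log2 units.

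The enzymes that break down lipids and sugars and the proteins of the lysosomal membrane were near the level of all genes. Of 28 hydrolases 19 were above 0 with a median of 0.03 log2 units, and of 27 membrane and acidification genes 15 were above 0 with a median of 0.01. None passed edgeR's test, 3 and 4 had an unadjusted p below 0.05, and DESeq2 and limma-voom called 0. Man2b1, lysosomal alpha-mannosidase, was at 61.8 ± 1.89 CPM in WT and 68.7 ± 2.86 CPM in MUT (SD, n = 4 each). Ids, iduronate sulfatase, differed the other way, with 568 CPM in WT replicate 1, 615, 561 and 593 CPM in WT replicates 2 to 4, and 495, 513, 495 and 527 CPM in MUT (-0.19 log2 units, SE 0.0555, adjusted p = 0.372). Cd63, a tetraspanin of late endosomes, was at 26.3, 26.1, 26.3 and 30.8 CPM in WT and 49.98, 39.1, 32.3 and 36.7 CPM in MUT (0.43, SE 0.144, adjusted p = 0.374). Against WT replicate 1 alone, 15 of 15 proteases and 24 of 28 hydrolases had a higher mean in MUT, with medians of 0.21 and 0.10. Against WT replicates 2 to 4 the medians were 0.10 and 0.02.

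The proteins that carry or bind progranulin had medians near 0. Of 12 tested receptors and partners, 0 passed edgeR's test, 1 had an unadjusted p below 0.05, DESeq2 and limma-voom called 0, and the median was -0.02 log2 units. Sortilin (Sort1), the endocytic receptor of progranulin, was at 723 ± 44.5 CPM in WT and 651 ± 56.9 CPM in MUT, with an interval of -0.26 to 0.05 log2 units. Prosaposin (Psap), which can carry progranulin to the lysosome, was at 1891 ± 102 and 1841 ± 45.6 CPM, an interval of -0.12 to 0.08. Tmem106b, the lysosomal membrane protein whose human variants modify risk in GRN carriers, was at 181 ± 14.9 and 173 ± 3.61 CPM, an interval of -0.17 to 0.11. Of 28 genes of inherited frontotemporal dementia and ALS, 0 passed edgeR's test, 3 had an unadjusted p below 0.05, DESeq2 called 1, and limma-voom called 0. That one was Ubqln2, a shuttle for ubiquitinated proteins, at 270.0 ± 6.44 CPM in WT and 237 ± 11.8 CPM in MUT (-0.16, SE 0.0411, adjusted p = 0.363). Mapt, the tau gene, lies 1.79 Mb from Grn and was at 689.9 ± 17.9 and 658 ± 15.4 CPM.

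Microglial genes were measured next. In RNA from whole tissue, a change in the number of cells of a type and a change in RNA per cell cannot be told apart. Of 29 tested genes of disease-associated microglia, the state that microglia take around lipid debris and plaques, 0 passed edgeR's test, 12 had an unadjusted p below 0.05, DESeq2 called 2 (Lyz2 and Tyrobp) and limma-voom 0. The values of 24 were above 0, with a median of 0.19 log2 units, and for 6 of 29 all MUT libraries were above all WT libraries, as for 3.38% of all tested genes. Cst7, Clec7a and Lgals3 had too few reads to be tested. Of 24 genes of homeostatic microglia, 16 were above 0 with a median of 0.08, and 1 did not overlap, where 7.09% of all tested genes did not. With edgeR, DESeq2 or limma-voom 0 passed, while 2 had an unadjusted p below 0.05. Omitting WT replicate 1 gave a median of 0.01, and omitting MUT replicate 3 gave 0.02.

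Lyz2, a lysozyme of myeloid cells that shares sequence with Lyz1, was at 2.20 CPM in WT replicate 1, 4.95, 6.07 and 4.53 CPM in WT replicates 2 to 4, and 11.7, 7.56, 10.4 and 8.75 CPM in MUT. The groups did not overlap, and the young WT library was the lowest of all. The difference was 1.31 log2 units (SE 0.236, adjusted p = 0.182). The fit with age beside sex gave 2.16 and called it, but it has only WT replicate 1 near the age of MUT. Against WT replicate 1 alone, MUT was higher by 2.05. Tyrobp, the signalling adaptor of Trem2, was at 6.16 CPM in WT replicate 1, 8.07, 7.46 and 9.42 CPM in WT replicates 2 to 4, and 11.5, 10.7, 11.6 and 11.6 CPM in MUT (0.61, SE 0.114, adjusted p = 0.182). Trem2, the lipid receptor itself, was at 8.88 ± 1.02 CPM in WT and 11.04 ± 1.01 CPM in MUT, and the groups overlapped (0.30, SE 0.109, adjusted p = 0.393). Cd68, a lysosomal glycoprotein of phagocytes, was at 5.22, 5.45, 7.11 and 7.22 CPM in WT and 8.36, 8.41, 9.45 and 8.81 CPM in MUT (0.51, SE 0.138, adjusted p = 0.363). Gpnmb, a glycoprotein of lipid-laden phagocytes, was at 2.69, 4.17, 1.83 and 2.92 CPM in WT and 3.96, 4.34, 4.01 and 2.92 CPM in MUT, with groups that overlapped and an interval of -0.07 to 1.053 log2 units. Apoe, the lipid carrier of glia, was at 1165 ± 52.2 and 1325 ± 92.6 CPM (0.18, SE 0.0783, adjusted p = 0.420). Irf8, a transcription factor of microglia on the homeostatic list, was at 5.33, 5.56, 5.18 and 5.61 CPM in WT and 7.20, 7.14, 8.02 and 6.92 CPM in MUT (0.48, SE 0.0955, adjusted p = 0.224).

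Complement, interferon and antigen presentation genes were mostly above 0, with wide spread between libraries. Of 19 tested complement genes 13 were above 0 with a median of 0.22 log2 units, 0 passed edgeR's test, 7 had an unadjusted p below 0.05, DESeq2 called 1 (C4b) and limma-voom 0. C4b, the mouse complement component 4, has a near copy, C4a, so that reads may be shared. It had 33.8 CPM in WT replicate 1, 24.0, 24.9 and 35.7 CPM in WT replicates 2 to 4, and 52.3, 51.3, 62.9 and 47.7 CPM in MUT. All MUT libraries were above all WT libraries, and the difference was 0.85 log2 units (SE 0.156, adjusted p = 0.182). C1qa and C1qb, chains of the first component, were at 33.3 ± 2.27 and 33.1 ± 3.58 CPM in WT and 38.0 ± 1.47 and 40.01 ± 2.16 CPM in MUT. Of 24 interferon-stimulated genes 22 were above 0 with a median of 0.26, and of 16 antigen presentation genes 15 were above 0 with a median of 0.30. Without WT replicate 1 the antigen presentation median was 0.16 and the complement median 0.14. With edgeR 0 of either list passed, 3 and 5 had an unadjusted p below 0.05, limma-voom called 0, and DESeq2 called only Ctss, which is on the antigen list.

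The interferon list rested on few libraries. Its level, the mean of centred log2 CPM over members, was -0.36 in WT replicate 1 and -0.16, 0.07 and -0.09 in WT replicates 2 to 4. In MUT it was 0.12, -0.15, 0.55 and -0.10, so that MUT replicates 2 and 4 lay among the WT libraries. The list's median was 0.05 log2 units without MUT replicate 3 and 0.40 without KO replicate 3. Ifit3, an antiviral protein, was at 5.003, 3.73, 4.89 and 3.88 CPM in WT and 8.22, 7.03, 8.37 and 5.10 CPM in MUT (0.61, SE 0.222, adjusted p = 0.393). H2-Ab1, a class II antigen presentation gene, was at 0.495, 0.667, 0.988 and 1.07 CPM in WT and 3.63, 1.32, 1.09 and 2.005 CPM in MUT (1.12, SE 0.428, adjusted p = 0.393). MUT replicate 1, with the highest H2-Ab1, is also the library with high choroid plexus and meningeal markers, and their part in this value was not tested.

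Reactive astrocyte genes were mostly above 0. Of 18 tested, 14 were above 0 with a median of 0.35 log2 units, which was 0.22 without MUT replicate 3, and the list level was -0.24, -0.22, -0.14 and -0.01 in WT and 0.40, 0.08, 0.20 and 0.03 in MUT, without overlap. With edgeR 0 passed, 7 had an unadjusted p below 0.05, DESeq2 called 1 (Gfap) and limma-voom 0. Gfap encodes the intermediate filament of astrocytes. It was at 154 CPM in WT replicate 1, 81.7, 74.7 and 109.9 CPM in WT replicates 2 to 4, and 255, 249, 303 and 216 CPM in MUT. The groups did not overlap, and among WT the young library was the highest. The difference was 1.23 log2 units (SE 0.206, adjusted p = 0.154), and MUT exceeded WT replicate 1 by 0.72 and the mean of the older WT libraries by 1.54. Gfap lies 0.451 Mb from Grn, in the window described above. Hspb1, a small heat shock protein, was at 4.18, 2.95, 2.27 and 3.46 CPM in WT and 6.96, 7.09, 4.01 and 4.86 CPM in MUT (0.65, SE 0.220, adjusted p = 0.374). The 18 genes of homeostatic astrocytes had a median of 0.01, with 0 that did not overlap, where 7.09% of all tested genes did not. Lcn2 and Timp1, other reactive genes, had too few reads to be tested.

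**Figure D4:**
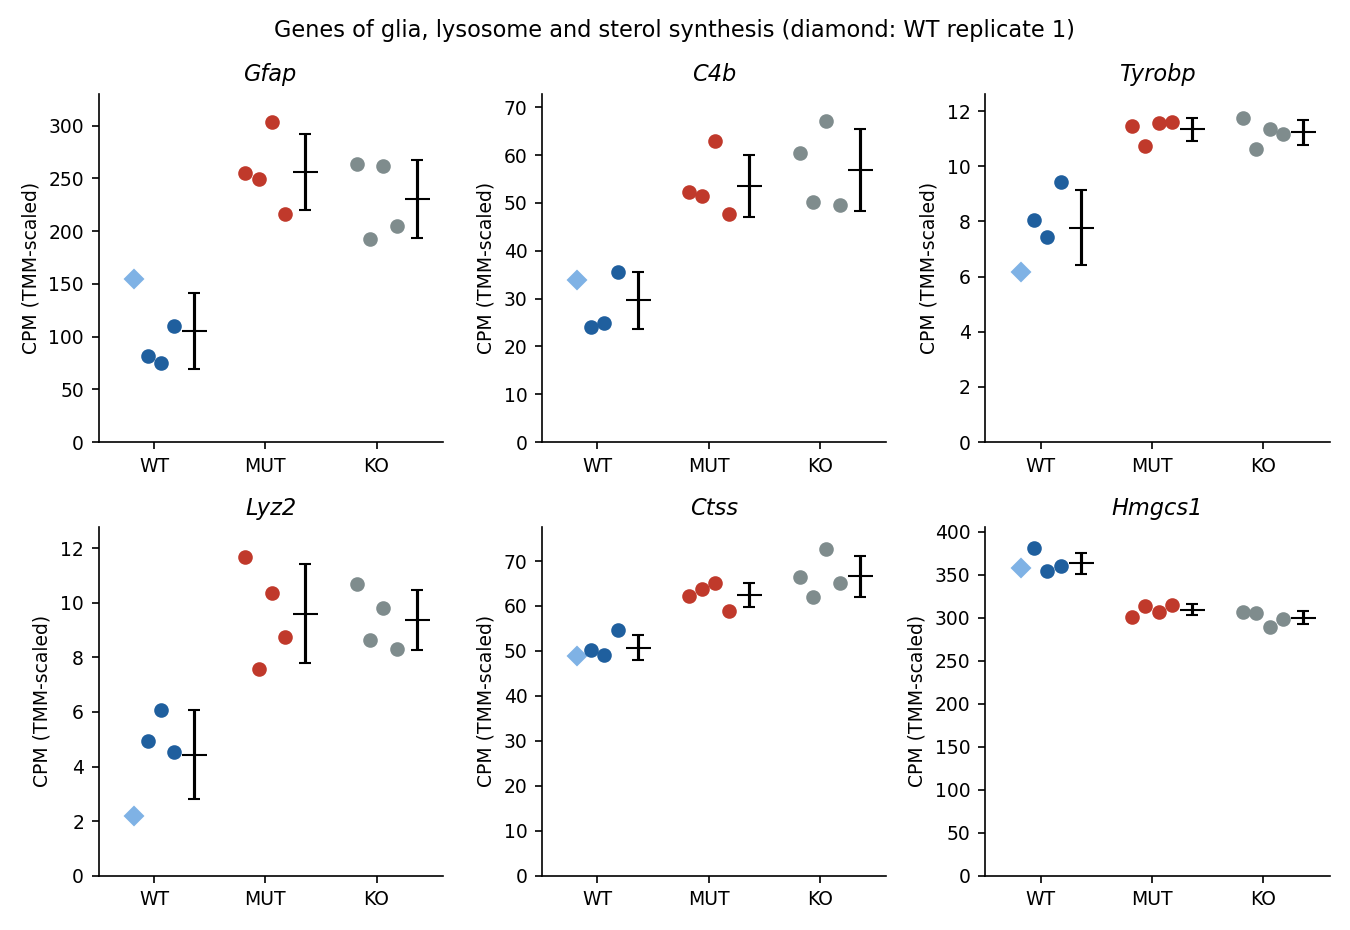
Level (CPM, vertical axes from 0) of 6 genes that did not pass the test, by group. Points are libraries, the light diamond is WT replicate 1, and bars give the mean ± SD of 4 libraries. The MUT libraries lie outside the WT range in each panel, with Hmgcs1 lower and the other 5 higher.

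Most synaptic genes had values slightly below 0. Of 24 genes of synaptic vesicles and the active zone, 3 were above 0, the median was -0.11 log2 units, and for 8 all MUT libraries were below all WT libraries, as for 3.71% of all tested genes. The list level was 0.05, 0.13, 0.13 and 0.03 in WT and -0.13, -0.04, 0.00 and -0.01 in MUT. With edgeR 0 passed, 9 had an unadjusted p below 0.05, DESeq2 called 1 and limma-voom 0. Bsn, the active zone scaffold Bassoon, was at 769, 829.9, 819 and 759.9 CPM in WT and 603, 682, 687 and 672 CPM in MUT (-0.25, SE 0.0682, adjusted p = 0.363). The list level of 24 receptor and postsynaptic genes was 0.03 to 0.12 in WT. In MUT it was -0.18 in replicate 1 and 0.02, 0.12 and 0.07 in replicates 2 to 4, so that the groups overlapped. Of these 24 genes 5 were above 0 with a median of -0.09. Among them, the AMPA receptor subunit gene Gria3 was at 378 ± 11.5 and 326 ± 22.8 CPM (-0.20, SE 0.0584, adjusted p = 0.372). None of that list passed with edgeR, DESeq2 or limma-voom, and 5 had an unadjusted p below 0.05.

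Cholesterol synthesis genes also had mostly negative values. Of 26 genes 3 were above 0, the median was -0.11 log2 units, and 7 had all MUT libraries below all WT libraries, against the same 3.71% of all tested genes. With edgeR 0 passed, 9 had an unadjusted p below 0.05, DESeq2 called 2 (Hmgcs1 among them), limma-voom called 0, and the fit without WT replicate 1 called 6. That last fit called 506 genes higher and 560 lower over all genes, and genotype, age and dissection cannot be told apart in it. Hmgcs1, which makes HMG-CoA, was at 358 CPM in WT replicate 1, 382, 355 and 359.9 CPM in WT replicates 2 to 4, and 302, 314, 307 and 315 CPM in MUT. The young WT library was within the range of the older ones, and all MUT libraries were below it. The difference was -0.22 log2 units (SE 0.0419, adjusted p = 0.199). The sign of this list's median, and those of the synaptic vesicle, receptor, reactive astrocyte, disease-associated microglia, complement and lysosomal protease lists, was the same in 30 of 30 other settings. So it was for the myelin, clock, interferon, antigen presentation and homeostatic microglia lists. It was also so for markers of excitatory neurons, hippocampal neurons and border-associated macrophages. A steady sign therefore sets none of these lists apart. The adjusted p was not under the threshold for a single gene of these lists in the main test. The settings refit the same libraries, so a shared sign is no separate support. For the receptor, disease-associated microglia and complement lists, the levels of MUT and WT libraries overlapped. They also overlapped for every list from myelin to border-associated macrophages.

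Several lists depended on which WT animals were used. The 57 cytosolic ribosomal protein genes had a median of 0.08 log2 units with 48 above 0, but of -0.01 against WT replicate 1 and 0.11 against the older WT libraries, and of -0.01 with age beside sex in the fit. Their level was 0.01 in WT replicate 1 and -0.12 in each of WT replicates 2 to 4, against -0.03 to 0.03 in MUT. Rps4x, a subunit of the small ribosomal particle, was at 119 CPM in WT replicate 1, 109, 112 and 102 CPM in WT replicates 2 to 4, and 134, 125, 128 and 137 CPM in MUT (0.23, SE 0.0529, adjusted p = 0.326). Reads of ribosomal protein genes may be shared with their processed copies. Circadian clock genes also had a WT replicate 1 apart from the older WT libraries, with a level of 0.07 in WT replicate 1, -0.14, -0.14 and -0.12 in WT replicates 2 to 4, and 0.00 to 0.13 in MUT. The clock activator Arntl was at 47.1, 50.4, 53.4 and 50.7 CPM in WT and 40.6, 43.2, 37.5 and 44.8 CPM in MUT, and the repressor gene Per3 at 71.4, 59.2, 54.4 and 58.3 CPM and 86.8, 71.4, 76.4 and 72.04 CPM. In these lists 11 of 57 and 6 of 18 genes had an unadjusted p below 0.05, 0 passed with edgeR or limma-voom, and DESeq2 called Rps4x.

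Myelin genes had a median of 0.13 log2 units, with 0.28 against WT replicate 1 and 0.09 against the older WT libraries, and their level ranged from -0.32 to 0.17 in WT alone. Omitting WT replicate 1, 3 or 4 gave medians of 0.07, 0.08 and 0.22. Sox10, the transcription factor of the oligodendrocyte lineage, was at 41.6 ± 4.58 CPM in WT and 47.4 ± 4.101 CPM in MUT. Nuclear genes of the respiratory chain had a median of 0.02, and Cox6a1, a subunit of cytochrome c oxidase, was at 189.5 ± 4.39 and 172 ± 7.11 CPM (-0.12, SE 0.0432, adjusted p = 0.393). Immediate early genes ran from -0.35 to 0.45 in list level within MUT, with MUT replicate 4 the highest, and their median of -0.13 turned to 0.18 with age in the fit. Genes of the unfolded protein response had a median of 0.11, which turned to -0.03 with age in the fit, and heat shock chaperones one of 0.05. With age in the fit, WT replicate 1 is the only WT library near the age of MUT. Ddit3, the stress transcription factor CHOP, overlaps Mars on the other strand and was at 19.8 ± 0.625 CPM in WT and 22.97 ± 1.70 CPM in MUT. The mitochondrial chaperonin gene Hspd1 was at 117, 119, 117 and 118 CPM in WT and 127, 128, 129 and 135 CPM in MUT (0.15, SE 0.0474, adjusted p = 0.372). None of these 5 lists had a member past the threshold with edgeR, DESeq2 or limma-voom, and 3, 4, 0, 4 and 4 of their genes, in the order named, had an unadjusted p below 0.05.

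**Figure D5:**
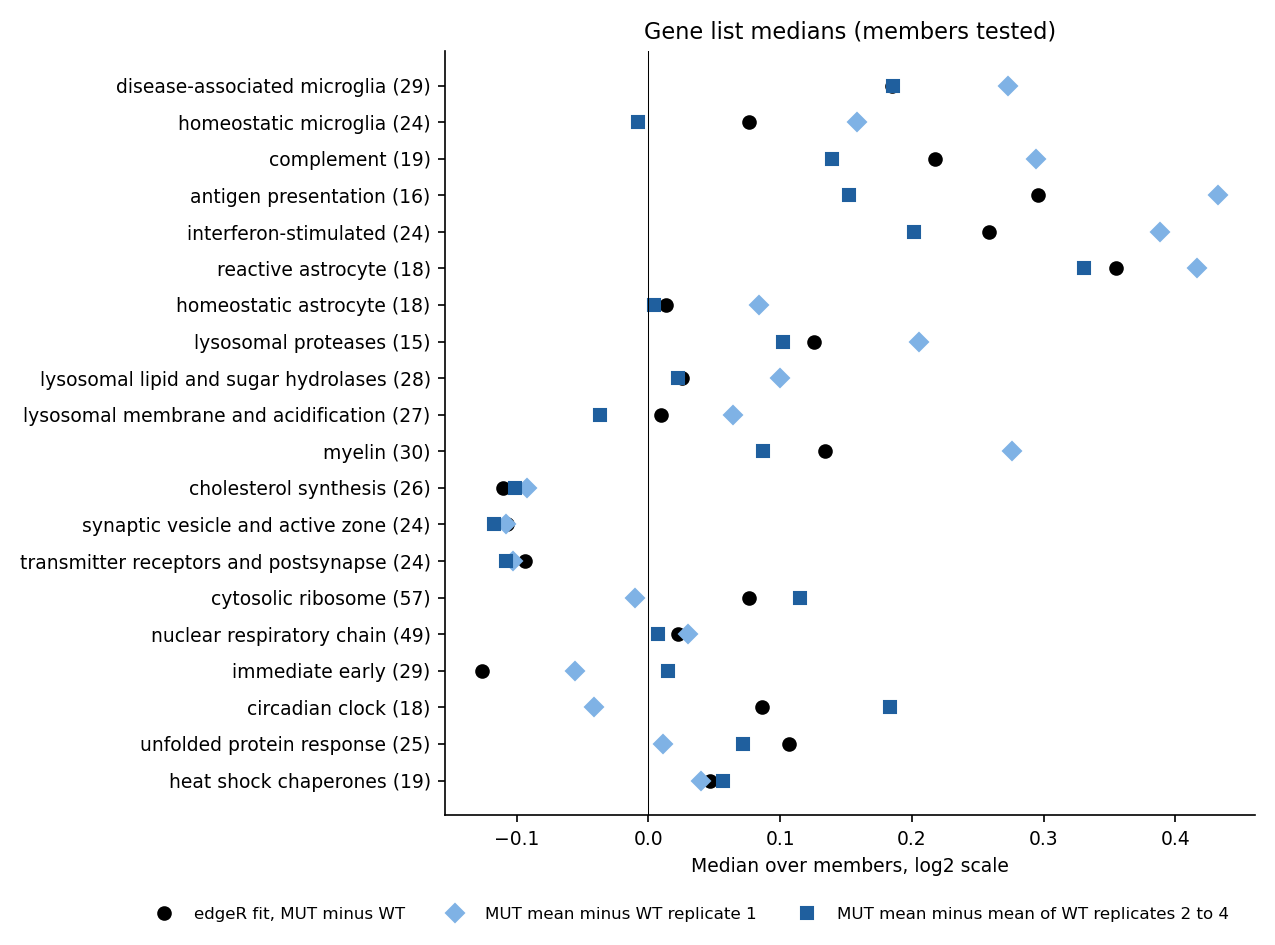
Median over the tested members of each gene list (horizontal axis, log2 scale; number of members in brackets). Black points are the edgeR difference of MUT from WT, and the diamonds and squares set the mean of the 4 MUT libraries against WT replicate 1 alone and against the mean of WT replicates 2 to 4. Cholesterol and synaptic lists lie left of 0 in all 3, and the ribosome and clock lists are among those that change sides.

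Markers of other regions and cell types were counted to see which of them moved with the groups. All 18 tested striatal genes had a negative value, with a median of -1.43 log2 units, but of -0.01 against WT replicate 1 and -1.86 against the older WT libraries. Ppp1r1b, the DARPP-32 protein of striatal neurons, was at 63.2 CPM in WT replicate 1, 155, 253 and 443 CPM in WT replicates 2 to 4, and 59.7 to 72.5 CPM in MUT. The dopamine receptor gene Drd1 ran alike, at 11.7 CPM, then 27.4, 40.5 and 80.4 CPM, and 8.94 to 12.5 CPM in MUT. None of the striatal genes passed edgeR's test, 16 had an unadjusted p below 0.05, and DESeq2 and limma-voom called 0. With the striatal level as a term, the fit called Grn and Hprt only. Choroid plexus genes, led by Ttr, the thyroxine carrier, were set by single libraries: Ttr was at 42.7, 12.6, 3.70 and 597 CPM in WT and 1283, 30.8, 9.34 and 4.07 CPM in MUT. Without the 3 libraries of the study that are high in these markers, Grn, Hprt and Wdfy1 passed and no other gene did.

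Markers of border-associated macrophages and meningeal fibroblasts, cells of the brain's coverings, had mostly positive values. All 8 tested macrophage markers were above 0 with a median of 0.33 log2 units, and 11 of 12 fibroblast markers with a median of 0.33. The fibroblast median was 0.03 without WT replicate 1, 0.06 without MUT replicate 1, 0.59 without MUT replicate 3 and -0.15 in libraries labelled male. Their levels were highest in MUT replicate 1, at 0.75 and 1.26, against 0.14 to 0.22 and -0.10 to 0.11 in the other MUT libraries. F13a1, the coagulation factor XIII chain of these macrophages, was at 0.880 CPM in WT replicate 1, 1.67, 1.63 and 0.656 CPM in WT replicates 2 to 4, 3.29, 2.38, 2.18 and 2.73 CPM in MUT, and 1.15, 1.41, 1.16 and 1.23 CPM in KO. It was thus above both other groups in every MUT library (1.15 against WT, SE 0.308, adjusted p = 0.363). Ogn, the small proteoglycan osteoglycin, was at 4.67, 3.06, 6.22 and 4.71 CPM in WT and 17.5, 6.93, 7.79 and 7.47 CPM in MUT (1.02, SE 0.347, adjusted p = 0.374). In both lists 0 passed with edgeR, DESeq2 or limma-voom, and 2 of each had an unadjusted p below 0.05. Markers of cortical neurons were nearer to 0: 16 excitatory markers had a median of -0.08 and 19 inhibitory markers one of -0.01.

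To ask what distinguishes the GRNmEx5 line from plain loss of Grn, MUT was set against KO in the same model. Hprt alone passed (0.00654% of genes), with -3.21 log2 units in MUT (SE 0.0895, adjusted p = 1.62e-09), and 879 genes had an unadjusted p below 0.05. DESeq2 called 9 genes higher and 6 lower. For the glial genes the intervals of the difference were -0.31 to 0.55 for Gfap, -0.40 to 0.23 for C4b, -0.32 to 0.57 for Lyz2 and -0.18 to 0.27 for Tyrobp. Differences of these sizes could not be told from 0, and the intervals do not show that the lines act alike. MUT against WT and KO against WT share the 4 WT libraries, so their likeness is no separate support. In KO against WT, where 72 genes passed (0.471%), Gfap differed by 1.11 (adjusted p = 0.0428), C4b by 0.94 (adjusted p = 0.0317), Lyz2 by 1.19 (adjusted p = 0.0470), Tyrobp by 0.57 (adjusted p = 0.0486) and Ctss by 0.39 (adjusted p = 0.0308). The values of MUT for the same genes were 1.23, 0.85, 1.31, 0.61 and 0.30. None passed in edgeR's fit of all 12 libraries, and DESeq2 called all 5.

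When only the 8 MUT and KO libraries were fitted, 30 genes were higher in MUT and 2 lower, Hprt and Exd1. The fit of animals under 310 days holds the same 8 libraries and WT replicate 1. It is no separate result, and its counts are not given. The fits without WT replicate 1 and WT replicate 3, which also hold these MUT and KO libraries, called 3 and 9 higher. The genes named here were chosen after their values were seen. Tnr, the matrix glycoprotein tenascin-R, was at 53.7, 56.2, 66.8 and 57.6 CPM in MUT and 42.1, 40.2, 36.5 and 36.5 CPM in KO, a difference of 0.64 in that fit (SE 0.0458, adjusted p = 0.000600) and of 0.56 in the fit of 12 libraries (adjusted p = 0.714). In WT it was at 63.6 CPM in replicate 1 and 34.5, 32.8 and 35.7 CPM in replicates 2 to 4, so that the young WT library was with MUT and the older ones with KO. Grin2a, a subunit gene of the NMDA receptor, was at 9.25 ± 2.44 CPM in MUT, 4.22 ± 0.369 CPM in KO and 6.12 CPM on average in WT. Cbl, a ubiquitin ligase gene, was at 17.3 ± 1.53, 8.65 ± 1.14 and 9.58 CPM. Kcnq3, a potassium channel subunit gene, was at 19.5 ± 2.66, 11.05 ± 0.524 and 13.7 CPM. Mib1, a ubiquitin ligase of Notch signalling, was at 38.7 ± 2.86 CPM in MUT and 39.4 CPM in WT, with KO lower at 23.2 ± 3.10 CPM (SD, n = 4 each). None of these genes passed in edgeR's fit of 12 libraries. There the adjusted p of MUT against KO was 0.665 for Grin2a, 0.862 for Cbl, 0.665 for Kcnq3 and 0.599 for Mib1.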

How the data were processed

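Directional RNA-seq libraries were prepared from mouse cortex, per the labels' protocols. The authors deposited raw read counts per gene with Entrez IDs. The submitters' processing notes name mm10, R 4.1.2 and DESeq2 1.34.0, while aligner, counter and use of strand were not given in the sources used here. The 1049 genes without a symbol stayed in the totals. The labels do not say that libraries came from separate animals, so p-values measure the spread between libraries. No library pair agreed within sampling noise (chi-square per degree of freedom at least 3.62 in all 66 pairs).

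Genes were kept by edgeR's filterByExpr (minimum count 10, total 15), scaled by TMM, and fitted with group means and labelled sex over all 12 libraries in edgeR 4.0.16 (R 4.3.3), with a quasi-likelihood test and Benjamini-Hochberg adjustment at 0.05. Residual degrees of freedom were 8 and the common biological coefficient of variation was 0.101. Age was kept out because it nearly coincides with WT. The script was tested on simulated counts. List levels are means of centred log2 CPM (prior count 2).

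The members, 38 gene lists and tests were chosen with earlier results of these data known. Named genes are 21 fixed genes, those past the threshold without overlap (up to 12 per direction against WT, 6 against KO), and per list up to 4 past the threshold or else the 2 with the smallest p; other genes are named only as chosen after their values were seen, or as pathway or neighbouring genes. DESeq2 1.42.0, limma-voom (limma 3.58.1) and 28 other settings were alternatives. The robust fit was added after seeing the data. Some list members are counted in their lists and not reported here by name.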

Additional observations from a re-analysis of the deposited data

Results flagged for a closer look

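The difference between MUT and KO in Hprt, -3.21 log2 units, stood out because MUT differed from WT while KO overlapped with WT. It was tested directly and passed in edgeR.

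Among 234 groups of 4 libraries examined for a single library far from the other 3, 27 held one (11.5%). The cutoff stands for about 1 in 20 among independent, normally distributed values. The groups share the same libraries and partly the same genes, and CPM were not on a log scale. The share is therefore not read as an excess over chance. Of the 27, 9 belong to MUT replicate 1. It was the highest MUT library for the CPM of Ttr (1283), Clic6 (30.6) and Ogn (17.5), and for the list levels of choroid plexus (2.996), meningeal fibroblasts (1.26), border-associated macrophages (0.75), endothelial cells (0.28) and lysosomal proteases (0.21). It was the lowest for Ephb2, an ephrin receptor gene (26.8 CPM). WT replicate 4 was the highest WT library for Ttr (597 CPM), Clic6 (17.7 CPM) and Cd63 (30.8 CPM) and the lowest for the lipoprotein receptor gene Lrp1 (668 CPM). WT replicate 1, the young WT animal, was the highest in Tnr (63.6 CPM) and in the list levels of the clock (0.0675) and the ribosome (0.00781), and the lowest in those of the lysosomal membrane (-0.0939) and iron handling (-0.15). WT replicate 3 was the highest in Slc22a6 (8.54 CPM), an anion transporter of the meninges, and in the respiratory chain list (0.00515).

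In the other MUT libraries, replicate 2 was the lowest in Tyrobp (10.7 CPM) and Cox6a1 (162 CPM) and the highest in Tac1 (15.3 CPM), and replicate 3 was the lowest in Casq2 (0.745 CPM). Replicate 4 was the highest in Hspd1 (135 CPM), Rarb (7.23 CPM) and the excitatory neuron list (-0.0094).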

How the results depend on the processing

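Grn and Hprt passed in all 30 other settings, at -2.21 to -2.03 and -3.45 to -3.04 log2 units. For MUT against WT, where edgeR called 1 gene higher and 2 lower, the higher and lower counts were 14 and 38 with DESeq2, 2 and 5 without the sex term, and 156 and 114 in libraries labelled male, which hold 1 MUT library. The higher count was 0 with limma-voom, the robust fit, the replicate block, only the groups compared, and the striatal or choroid plexus level as a term. Animals under 310 days and libraries labelled female leave WT replicate 1 as the only WT library, so counts from those fits are not given. Leaving out 1 library gave 0 to 506 higher and 2 to 560 lower, with both high counts without WT replicate 1.

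For MUT against KO (0 higher, 1 lower), the counts were 9 and 6 with DESeq2 and 30 and 2 with only the groups compared. The fit under 310 days adds only WT replicate 1 to those same MUT and KO libraries, so its counts are not given. Leaving out 1 library gave 0 to 9 higher (3 without WT replicate 1, 9 without WT replicate 3) and 1 to 2 lower (2 without KO replicate 2). The cause of these shifts was not tested.

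Replicate numbers did not pair the samples: same-numbered deviations correlated at -0.16 to 0.04, and 0 of 4 MUT libraries correlated best with their own number. With the replicate block 0 genes were higher and 2 lower, and Wdfy1 was at 0.97.

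Signs turned in at least 1 setting for 5 of the 21 fixed genes, given here by their log2 differences of MUT from WT, and for 13 of 61 other genes examined, with ranges of -0.19 to 0.96 for Tnr, -4.10 to 3.51 for Clic6, -1.87 to 0.14 for Casq2 and -2.11 to 0.05 for Rarb. Ctsb (-0.01) was 0.0118 by library size alone, 0.141 with age beside sex, 0.00941 with only the groups compared, 0.161 under 310 days, 0.17 labelled female, 0.0932 with the striatal term and 0.00556 with the length trend removed. Leaving out 1 library gave -0.126 to 0.0526, above 0 without WT replicate 3 and without MUT replicate 2 and without MUT replicate 3. Tmem106b (-0.03) was 0.108 with age beside sex, 0.0681 under 310 days, 0.0599 labelled female, 0.055 with the striatal term and 0.0147 without the 3 libraries high in choroid plexus markers. Leaving out 1 library gave -0.0906 to 0.00816, above 0 without WT replicate 4. Psap (-0.02) was 0.00445 by library size alone, 0.0638 with age beside sex, 0.0842 under 310 days, 0.0939 labelled female and 0.0377 with the striatal term. Leaving out 1 library gave -0.0889 to 0.0277, above 0 without MUT replicate 3. Ttr (-3.74) was 1.02 without the sex term, 3.68 with age beside sex, 3.5 under 310 days, 3.36 labelled female and 3.47 with the striatal term. Leaving out 1 library gave -5.72 to 1.33, above 0 without WT replicate 4 and without KO replicate 3. Ppp1r1b (-1.55) was 0.156 under 310 days and 0.138 labelled female.

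Genotype, age, labelled sex and dissection are partly confounded in WT, and 10 counts correspond to 0.483 to 0.607 CPM, which limits genes such as Meox1. Omitting single libraries moved the median of immediate early genes to between -0.37 (without WT replicate 1) and -0.08 (without MUT replicate 1), of the unfolded protein response to between 0.05 (without WT replicate 4) and 0.18 (without WT replicate 1), of the clock to between 0.04 (without MUT replicate 3) and 0.14 (without WT replicate 1), of heat shock chaperones to between 0.01 (without KO replicate 3) and 0.10 (without MUT replicate 3), and of striatal markers to -2.17 without WT replicate 1.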
